A study of Mus musculus with 15 samples.

Results

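Of the 3192 broad domains of histone H3 lysine 27 acetylation (H3K27Ac) that pre-B cells held before induction, 1425 were at least 2-fold lower at 48 hours post-induction (hpi). They are the subject here and are called shrinking domains. The other 1767 are called retained domains. The genome (mm9, chromosomes 1 to 19 and X) was cut into windows of 3 kb, and F was the number of distinct tag positions in a window over the mean of that library. A broad domain was a run of 3 or more windows with an F of at least 4 at 0 hpi. The members were chosen by measured values, namely H3K27Ac at 0 and 48 hpi, so the fall between those 2 libraries is given as a description and supports nothing.

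The study followed the conversion of C10 cells into macrophage-like cells. C10 derives from the murine pre-B line HAFTL and expresses a fusion of the transcription factor C/EBPα with the estrogen receptor hormone-binding part and GFP, so all samples share this transgene and come from 1 line. β-estradiol together with IL-3 and CSF-1 induced the cells, and control cells received the ethanol solvent. Chromatin immunoprecipitation and sequencing (ChIP-seq) was done for H3K27Ac, H3K4Me1 and H3K27Me3 at 0, 3, 12, 24 and 48 hpi, with 1 library per mark and time, so no value below has a replicate check and no test between times was possible. The 15 libraries held 10913733 to 31541879 distinct positions. The 0 hpi cells carried the label pre-B, which was checked against H3K27Ac in the 3 kb around marker gene starts. Among pre-B markers F was 83.2 at Igll1, 58.4 at Pax5 and 10.8 at Rag1. Among macrophage markers it was 18.1 at Tyrobp, 6.62 at Lyz2, 1.86 at Cd14 and 0.547 at Itgam, so the lowest pre-B marker lay below the highest macrophage marker. At 48 hpi the same F was 25.5, 15 and 1.73 at the first 3 and 43.0, 39.6, 69.6 and 5.08 at the other 4. The T cell markers Cd3e, Cd3d and Cd8a stayed between 0.152 and 0.711. Of the erythroid markers, Gata1 had 0.0547 and 0.102 at 0 and 48 hpi. The other, Klf1, had 5.64 and 4.92, so at 0 hpi it lay above Cd14 and Itgam. In a bulk culture, fewer cells that keep a mark and less mark per cell cannot be told apart.

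H3K27Ac marks active promoters and enhancers, and it is laid down by acetyltransferases such as CBP and P300 and removed by deacetylases. H3K4Me1 marks enhancers, active or not, and H3K27Me3 is the mark of Polycomb repression. Long stretches of H3K27Ac lie over clusters of enhancers and over the starts of highly expressed genes, and in B cell progenitors they are known at genes of cell identity such as Pax5, Ebf1 and the surrogate light chain genes.

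Stretches of 300 bases are shown for 6 shrinking domains, from NCBIM37 (mm9), plus strand: the 3 with the largest fall, the domains at the Pax5 and Ebf1 starts, and the long domain in Zcchc7 beside Pax5. Each lies in the 1 kb bin of its domain with the most H3K27Ac tags at 0 hpi, outside annotated exons. Within that bin the stretch with the most motif matches was taken, so its matches are no measure of density. Capitals mark the letters of a motif searched on both strands: EBF1 CCCNNGGGA, E protein CAGGTG, PU.1 GAGGAAGT, C/EBP TTGCNNAA, RUNX TGTGGTT and AP-1 TGANTCA. The stretch near Glrx3 is chr7:144785451-144785750, and its bin held 573, 391, 125, 43 and 32 H3K27Ac tags at 0, 3, 12, 24 and 48 hpi. The stretch near Lpin1 is chr12:16441451-16441750, and its bin held 317, 87, 17, 6 and 6. The stretch in an intron of 1300010F03Rik is chr14:79300551-79300850, and its bin held 229, 261, 23, 5 and 4. The Pax5 stretch is chr4:44722351-44722650, within the gene, and its bin held 532, 194, 259, 217 and 117. The Ebf1 stretch is chr11:44426351-44426650, before the start of the gene, and its bin held 514, 510, 429, 412 and 232. The stretch in Zcchc7 is chr4:44918101-44918400, and its bin held 449, 302, 201, 216 and 115. The first 3 were picked for their fall, which sets their low counts at 48 hpi.
near Glrx3: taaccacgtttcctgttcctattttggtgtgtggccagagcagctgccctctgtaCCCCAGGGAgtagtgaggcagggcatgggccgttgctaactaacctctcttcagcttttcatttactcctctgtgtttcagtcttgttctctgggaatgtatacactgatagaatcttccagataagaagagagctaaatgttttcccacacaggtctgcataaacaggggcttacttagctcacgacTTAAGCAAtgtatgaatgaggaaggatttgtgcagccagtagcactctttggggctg
near Lpin1: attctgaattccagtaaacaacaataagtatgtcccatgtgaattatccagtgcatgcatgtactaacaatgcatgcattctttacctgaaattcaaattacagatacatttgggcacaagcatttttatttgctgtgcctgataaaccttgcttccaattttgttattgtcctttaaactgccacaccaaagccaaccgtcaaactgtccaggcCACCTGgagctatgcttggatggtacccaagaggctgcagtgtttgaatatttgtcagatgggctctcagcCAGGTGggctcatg
in 1300010F03Rik: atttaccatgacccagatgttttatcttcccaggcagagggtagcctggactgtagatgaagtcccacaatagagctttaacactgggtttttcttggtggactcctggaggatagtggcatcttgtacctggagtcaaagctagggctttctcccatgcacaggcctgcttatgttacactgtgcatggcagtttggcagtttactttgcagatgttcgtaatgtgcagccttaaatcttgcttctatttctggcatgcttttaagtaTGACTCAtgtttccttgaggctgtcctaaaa
Pax5: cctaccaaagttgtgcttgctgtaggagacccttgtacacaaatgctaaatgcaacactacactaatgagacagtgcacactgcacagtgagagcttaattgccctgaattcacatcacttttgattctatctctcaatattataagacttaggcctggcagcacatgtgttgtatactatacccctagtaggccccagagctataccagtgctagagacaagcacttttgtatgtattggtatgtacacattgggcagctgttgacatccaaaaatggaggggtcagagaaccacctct
Ebf1: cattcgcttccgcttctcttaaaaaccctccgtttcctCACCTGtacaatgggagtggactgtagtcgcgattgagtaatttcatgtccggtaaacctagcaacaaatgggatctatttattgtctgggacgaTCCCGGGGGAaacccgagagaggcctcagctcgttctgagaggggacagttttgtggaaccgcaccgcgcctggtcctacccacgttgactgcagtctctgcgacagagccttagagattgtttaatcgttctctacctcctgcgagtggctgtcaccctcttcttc
in Zcchc7: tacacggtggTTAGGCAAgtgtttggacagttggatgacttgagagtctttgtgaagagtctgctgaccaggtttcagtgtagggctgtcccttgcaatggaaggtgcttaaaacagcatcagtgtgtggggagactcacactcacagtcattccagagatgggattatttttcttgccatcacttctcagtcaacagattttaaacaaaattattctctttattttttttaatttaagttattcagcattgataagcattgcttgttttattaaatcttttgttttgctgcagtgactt

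The shrinking domains covered 19.7 Mb and were 9 to 108 kb long with a median of 12.0 kb. At 0 hpi they held 17.9% of all H3K27Ac positions, and at 48 hpi 5.48%. The 0 over 48 hpi ratio of mean F, which the rule used, had a median of 3.25 with the middle 50% between 2.46 and 4.79 and a highest value of 32.0. The ratio was at least 3-fold in 805, at least 5-fold in 325 and at least 10-fold in 69 members. Over all broad domains 44.6% met the rule, and this share is the rule itself. A member held 263 to 21501 distinct tags at 0 hpi, and in 1254 of the 1425 (88.0%) the lower 95% counting bound of the ratio was also at least 2. Counting bounds cover counting error alone. In the other direction, 4174 broad domains were found at 48 hpi, and 1435 of them (34.4%) were at least 2-fold lower at 0 hpi. Of 15208 narrow runs of 1 or 2 windows at 0 hpi, 4515 (29.7%) were at least 2-fold lower at 48 hpi.

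**Figure D1:**
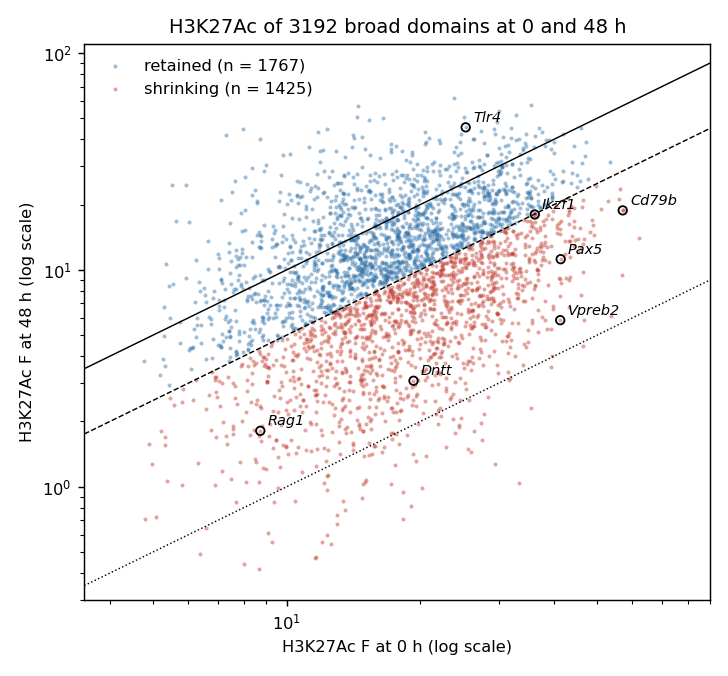
Mean H3K27Ac F of each broad domain at 0 hpi (x axis) and 48 hpi (y axis), both on log scales, with 1 point per domain. The solid line marks equal F, the dashed line the 2-fold rule and the dotted line a 10-fold fall, with 69 members at or below the last. Rag1, Dntt, Vpreb2, Pax5 and Cd79b lie among the 1425 shrinking domains, Ikzf1 lies just inside the rule at a ratio of 2.01, and Tlr4 lies above the line of equal F.

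Shrinking domains had a median F of 19.4, 12.4, 9.25, 8.18 and 5.68 at 0, 3, 12, 24 and 48 hpi. The median of the retained domains was 16.7, 15.7, 16.3, 18.6 and 14.0 at the same times. The members were therefore the higher group at 0 hpi and the lower group at every later time. The 3, 12 and 24 hpi libraries were not used by the rule. From 3 to 24 hpi the median log2 change was -0.56 in shrinking domains (95% order-statistic interval -0.62 to -0.51, over domains) and 0.19 in retained domains. In this interval 402 members (28.2%) were at least 2-fold lower at 24 than at 3 hpi, against 13.4% of all broad domains. These log2 changes depend on how libraries are scaled. With the libraries scaled to windows of background level, the 24 and 3 hpi libraries were shifted by 0.797 and -0.354 against 0 hpi on the log2 scale. The rule applied again under this scaling chose 1289 domains, and their median change from 3 to 24 hpi was 0.52. The difference between shrinking and retained domains does not move with scaling when the same domains are compared. Against 0 hpi it was -0.57, -0.94, -1.24 and -1.34 on the log2 scale at the 4 later times in order, and the libraries of the rule set its end and enter each of these values through 0 hpi. From 3 to 24 hpi it was -0.75, and it lay between -0.94 and -0.67 under all 12 alternative settings.

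**Figure D2:**
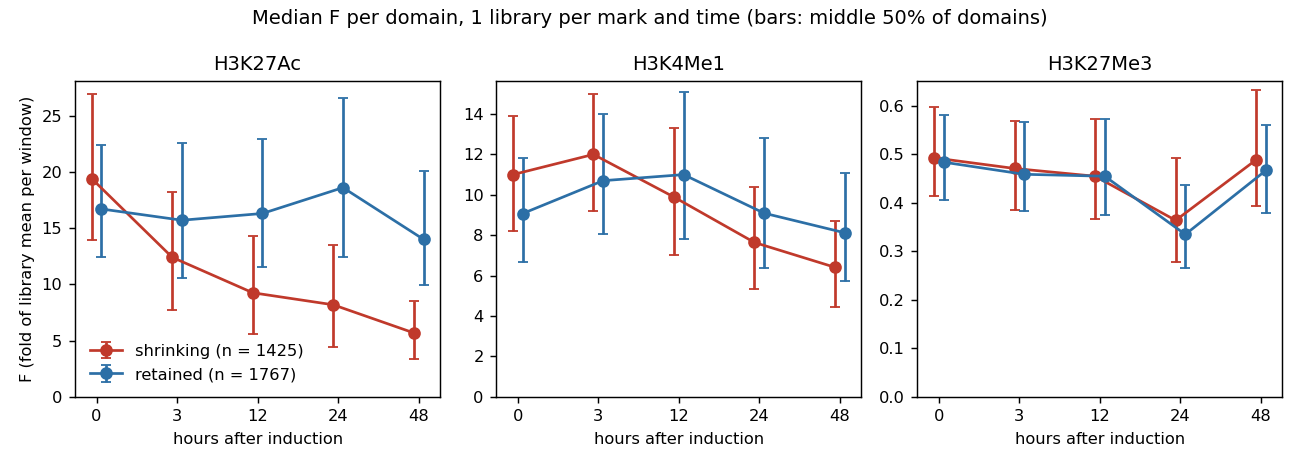
Median F per domain (y axis) against hours after induction (x axis) for H3K27Ac, H3K4Me1 and H3K27Me3, in 1425 shrinking and 1767 retained domains. Bars span the middle 50% of domains, not replicates. H3K27Ac of the shrinking domains goes from 19.4 to 5.68, H3K4Me1 from 11 to 6.41, and H3K27Me3 stays near 0.49 at both ends in both groups.

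The members did not all lose the mark at the same time. A level at least 2-fold below that at 0 hpi was first seen at 3 hpi in 429 members (30.1%). It was first seen at 12 hpi in another 397 (27.9%) and at 24 hpi in 125 (8.77%). The remaining 474 members (33.3%) were not 2-fold lower before 48 hpi. Counted at each time instead of the first time, 30.1%, 52.7% and 60.1% of members were at least 2-fold below 0 hpi at 3, 12 and 24 hpi. Of all broad domains, 16.8%, 25.0% and 27.6% were so at the same times, and these comparisons share the 0 hpi library with the rule. Of the 429 earliest members, 336 were at least 2-fold lower at every later time as well. Any level below 0 hpi was seen at 3 hpi in 88.8% of members and in 72.6% of all broad domains, and 159 members were higher than at 0 hpi. Under background scaling the rule chose 1289 domains. Of these, 720 were 2-fold lower at 3 hpi and 391 at 24 hpi, beside 429 and 856 of the 1425 members.

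Members that crossed the 2-fold line early and late differed in place. A start of a protein-coding gene lay in 15.9% of those first lower at 3 hpi (exact 95% interval 12.5 to 19.7) and in 48.9% of those not lower before 48 hpi (44.4 to 53.5). These groups also differed in depth. Median H3K27Ac F went from 18.6 to 4.09 by 48 hpi in the early group and from 21.3 to 8.45 in the late group. A deeper fall can cross a fixed line sooner, so time and depth of the fall cannot be told apart here. In the 429 earliest members the median H3K27Ac F was 18.6 at 0 hpi and 7.08 at 3 hpi, while their median H3K4Me1 F was 12.3 and 12.4. H3K4Me1 in them was 9.27, 7.52 and 6.36 at the later times. The low H3K27Ac at 3 hpi is what chose these domains, so no order of the marks can be read from it. Their median log2 changes of H3K4Me1 from 0 hpi were -0.37, -0.68 and -0.97 at 12, 24 and 48 hpi. Background scaling shifts those libraries by 0.697, 0.809 and 0.774 on the log2 scale, which is more than the first 2 of these changes and most of the last.

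**Figure D3:**
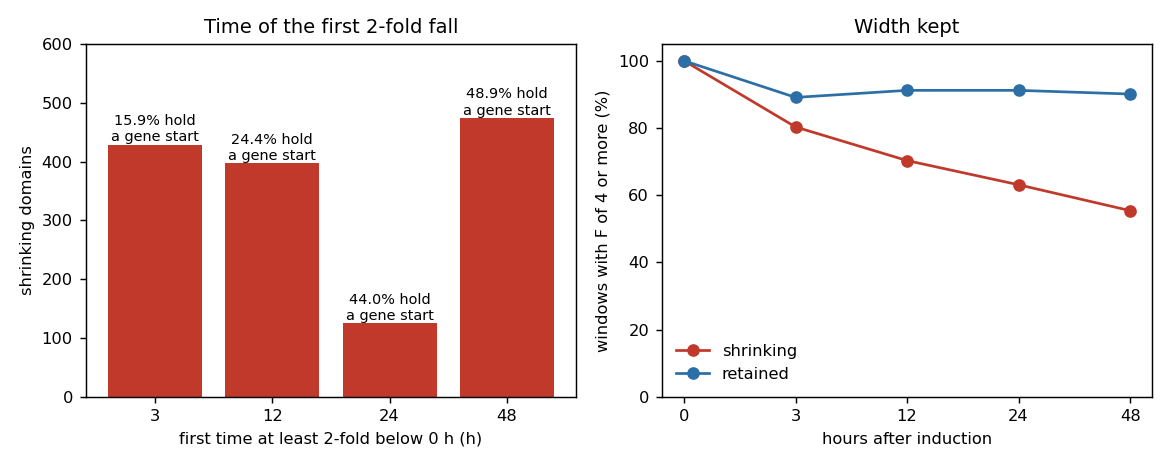
Left, the number of shrinking domains (y axis) by the first time at which H3K27Ac was at least 2-fold below 0 hpi (x axis, in hours); the 48 h bar holds all members not lower before. Right, the share of 3 kb windows with an F of at least 4 (y axis, percent) against hours after induction, which ends at 55.4% in shrinking and 90.1% in retained domains.

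The width above an F of 4 is given as a description, since the rule used the same 0 and 48 hpi libraries and its split sets much of any contrast with retained domains at 48 hpi. The members' 6574 windows all had an F of at least 4 at 0 hpi by the rule, and 5282, 4624, 4149 and 3644 did at 3, 12, 24 and 48 hpi, the last being 55.4%. In retained domains the share at 48 hpi was 90.1%. No window at this level was left in 199 members (14.0%, exact 95% interval 12.2 to 15.9), a share that depended on the definition and was 28.5% with at least 2 windows, 4.99% with at least 5 and 23.1% at 3-fold. Every window was left in 195 (13.7%), and a part was left in 1031. Of those 1031, 320 (31.0%) had broken into separate runs. A run of 3 or more windows, the definition of a broad domain, remained in 494 members (34.7%) and in 80.2% of retained domains. Windows that held a gene start kept an F of at least 4 in 85.0% of cases, other windows of the same domains in 61.5%, and windows of domains without a start in 49.1%. Their median F at 0 hpi was 26.8, 17.5 and 15.8 in the same order, so the windows with a start also began higher. Within 452 members that held a start, the log2 change from 0 to 48 hpi of the start windows was above that of the other windows by a median of 0.25, again a description from the libraries of the rule, with the start windows less reduced in 284 of them (62.8%).

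H3K4Me1, the enhancer mark the rule did not use, was lower too but by less. Its median F in shrinking domains was 11, 12.0, 9.89, 7.64 and 6.41 at 0, 3, 12, 24 and 48 hpi, and in retained domains 9.07, 10.7, 11, 9.09 and 8.12. The median log2 change from 0 to 48 hpi was -0.71 (-0.74 to -0.69) in shrinking and -0.17 in retained domains. At least 2-fold lower at 48 hpi were 408 members (28.6%), against 14.2% of all broad domains and 45 retained domains. Background scaling moved the 48 hpi H3K4Me1 library up by 0.774 on the log2 scale. Of the 1289 domains that the rule chose under it, 35 were at least 2-fold lower, and the median change was 0.03. The difference between the groups, -0.54 on the log2 scale, lay between -0.67 and -0.47 under the 12 alternatives. H3K27Ac changed more strongly downward than H3K4Me1 in 1413 members (99.2%) and in 61.3% of retained domains, and the rule on H3K27Ac favours the first count. A mean H3K4Me1 F of at least 4 was found in 97.1% of members at 0 hpi and in 1147 members (80.5%) at 48 hpi, against 1686 and 1591 of the 1767 retained domains. At 48 hpi it was found in 115 (57.8%) of the 199 members without any window at an H3K27Ac F of 4, where median H3K4Me1 went from 9.87 to 4.33 and median H3K27Ac from 12.0 to 1.73. Over the 1425 members, which share libraries, the changes of the 2 marks from 0 to 48 hpi had a Spearman correlation of 0.567.

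The Polycomb mark H3K27Me3 was low in most members at all times. Its median F was 0.493, 0.471, 0.455, 0.364 and 0.489 at 0, 3, 12, 24 and 48 hpi, below the genome mean of 1 throughout. The median log2 change from 0 to 48 hpi was 0.02 (-0.00 to 0.04). At least 2-fold higher were 13 members (0.912%) and 1 retained domain (0.0566%), against 0.439% of all broad domains. At least 2-fold lower were 2 members (0.140%) and 14 retained domains (0.792%), against 0.501%. An F of at least 2 was reached by 3 members (0.211%) at 0 hpi and by 6 (0.421%) at 48 hpi, and by 7 retained domains (0.396%) at either time. The domain near Grap2, which encodes a lymphoid signalling adaptor, went from 0.968 to 2.28, and its H3K27Ac from 13 to 0.744. The domain in Nuak1, a kinase gene, went from 0.765 to 1.83. The Wnt10a domain, at the start of a Wnt ligand gene, was already high and went from 3.55 to 4.27. The highest value, 6.63 at 0 hpi and 11.2 at 48 hpi, was in a 9 kb domain whose nearest start, Pgk2, lies 363054 bp away. All 3 marks were high there at 0 hpi, with an H3K27Ac F of 43.1 and an H3K4Me1 F of 11.6. Whether this reflects the marks or an excess of tags at that place was not tested. The Grap2 and Pgk2 domains were named after their values were seen.

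Shrinking domains lay away from gene starts more often than retained ones. A protein-coding gene start lay in 452 members (31.7%) and in 54.0% of retained domains. Another 560 members (39.3%) lay within a gene without its start, and 413 (29.0%) lay between genes. Read the other way, 32.1% of broad domains with a start, 51.8% of those in a gene and 58.7% of those between genes were shrinking. The median 0 over 48 hpi ratio of H3K27Ac F in members was 2.78, 3.36 and 4.06 for the same 3 places. The median log2 change of H3K4Me1 was -0.58, -0.71 and -0.92. Longer domains were shrinking more often, from 40.5% of those with 3 windows to 53.8% of those with 10 or more. Members also had members as neighbours: of the 785 with another broad domain within 50 kb, the nearest was shrinking in 64.7%, against 33.3% for retained domains. For 150 members and 131 retained domains the neighbour was 1 window apart, so some neighbours are parts of nearly 1 stretch.

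Across all members, 1163 genes were nearest to at least 1 shrinking domain, and 4 genes were nearest to 5 or more. Ebf1, which encodes a transcription factor required for B cell specification, stood first with 9 of 10 domains and 156 kb. Gm7112, a gene model on chromosome 12 in the immunoglobulin heavy chain region, followed with 7 of 7. Cdc42se2, which encodes a small effector of Cdc42, had 5 of 5. These genes were named after their counts were seen.

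The Ebf1 locus shows how such a cluster shrank. From 60 kb before the gene start to beyond the most distal member (chr11, start at 44430819, plus strand), mean H3K27Ac F over all windows was 7.06, 5.74, 3.89, 3.18 and 2.60 at 0, 3, 12, 24 and 48 hpi. H3K4Me1 over the same windows was 5.24, 5.76, 3.94, 3.30 and 3.04. The 15 kb domain at the start was one of the mildest, at 44.3, 35.6, 30.6, 26.7 and 16.8. The domain of 48 kb in Ebf1 (44700001 to 44748000) had an H3K27Ac F of 20, 15, 9.76, 8.76 and 6.14. The largest ratio, 7.85, belonged to the 9 kb domain near Ebf1 that begins at 44835001, with 34.5 at 0 hpi and 4.40 at 48 hpi. Ratios of the other members there ran from 3.46 to 7.10. The domain at the start, at 2.64, had the smallest ratio of the 9 members, which all had to reach 2. With libraries scaled to windows enriched in all 5 H3K27Ac libraries, the domain at the start no longer met 2-fold. The retained domain of 18 kb in Ebf1, 152181 bp from the start, had a lower ratio of 1.76, from 11.9 to 6.77.

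Pax5, which encodes the factor that maintains B cell identity, lay in another cluster. Mean H3K27Ac F over the windows from 60 kb on one side of its start (chr4, 44724318, minus strand) to 240 kb on the other was 11.3, 7.37, 4.89, 4.16 and 3.23, and 5 of 6 broad domains there were shrinking. The domain at the start spanned 18 kb and had an F of 41.4, 27.4, 24.4, 20.8 and 11.2. A domain of 54 kb in Zcchc7, the neighbouring gene, lies upstream of the Pax5 start. Its H3K27Ac F was 25.8, 13.9, 6.63, 5.44 and 3.79 and its ratio 6.82. H3K4Me1 in Zcchc7 was 12.2, 15.2 and 6.0 at 0, 3 and 48 hpi. The 9 kb domain nearer to Pax5 in Zcchc7 had an H3K27Ac F of 19, 21.0 and 5.08 at the same 3 times. The domain in Pax5 that lies downstream of the start had the smallest ratio of the 5, 2.20. The Ebf1 and Zcchc7 domains away from gene starts were singled out after their values were seen.

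**Figure D4:**
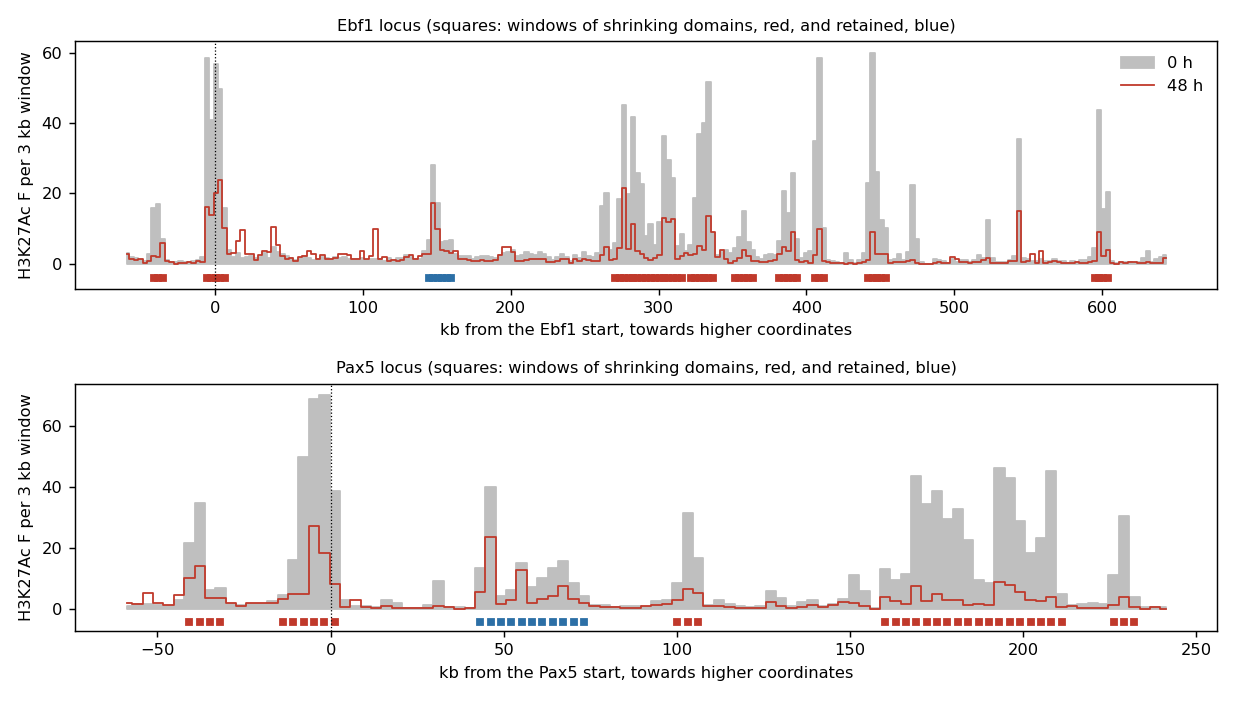
H3K27Ac F per 3 kb window (y axis) at 0 hpi (grey) and 48 hpi (red line) against distance in kb from the start of Ebf1 (top) and of Pax5 (bottom), in the direction of rising coordinates; Pax5 is transcribed to the left. Squares mark windows of shrinking (red) and retained (blue) domains: 9 of 10 domains in the Ebf1 locus and 5 of 6 in the Pax5 locus are shrinking.

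Genes were then read by role from lists chosen with earlier results of these data known. Of 1857 protein-coding genes with a start in a broad domain, 31.1% had it in a shrinking one, and of 2715 whose body overlapped a broad domain, 39.7% overlapped a shrinking one. Of the 15 B lineage transcription factors with a start in a broad domain, 13 had it in a shrinking domain, with ratios from 2.01 to 4.43 and a median of 3.28. Ikzf3, an Ikaros family factor, had an F of 25.4, 15, 11, 9.32 and 5.73, the largest ratio of the list. Pou2f2, which encodes the octamer factor OCT2, had 18.3, 7.21, 8.30, 8.22 and 4.66, with the larger steps from 0 to 3 and from 24 to 48 hpi. Irf8, a factor of both B and myeloid cells, had 43.4, 19.8, 15.4, 15.2 and 11.5 over 42 kb. Tcf3, which encodes the E2A proteins, had 32.5, 19.3, 12.5, 12.0 and 9.17, with H3K4Me1 going from 12.8 to 4.87. Myb, a progenitor factor, went the other way first, at 26.7, 45.1, 26.5, 21.7 and 12.0. Ikzf1, the founding Ikaros gene, was only just a member, at 36.2, 31.8, 25.2, 26.2 and 18. The remaining members of the list were Foxo1, Lef1, Irf4, Spib and Sox4, beside Pax5 and Ebf1, and Pou2af1 and Bcl11a were retained with ratios of 1.87 and 1.65. Under the scaling by windows enriched in all 5 libraries, 9 of the 13 still met 2-fold, and Ebf1, Ikzf1, Irf4 and Myb did not. That scaling shifts every domain alike by 0.413 on the log2 scale, so by the rule no member can stop being lower at 48 hpi.

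The pre-B receptor pairs an immunoglobulin heavy chain with the surrogate light chain of VpreB and λ5 and signals through Igα and Igβ. Of 17 list genes of the receptor and its signalling with a start in a broad domain, 10 were in shrinking domains, and 7 still were under the scaling by enriched windows. Vpreb1 and Igll1, which encode the surrogate light chain, share 1 domain of 21 kb with an F of 46.6, 43.2, 35.7, 28.6 and 13.9. Vpreb2, the second VpreB gene, had 41.3, 15.5, 9.72, 6.29 and 5.86, and its ratio of 7.05 was the largest of the list. The shared domain, which also holds the Top3b start, thus lost the mark late and the Vpreb2 domain early, with the 2 levels close at 0 hpi. These are means over domains. In the 3 kb around the start, F went from 55.6 to 27.4 at Vpreb1 and from 83.2 to 25.5 at Igll1 between 0 and 48 hpi. Near-identical sequence between Vpreb1 and Vpreb2 removes tags that align to both, so their levels are uncertain. Cd79b, which encodes Igβ, had 57.1, 22.4, 29.0, 29.0 and 18.8, the second highest 0 hpi level of all members. Cd79a, which encodes Igα, had 32.3, 24.0, 20.3, 17.0 and 12.0. Blnk, the adaptor that links the receptor to its kinases, had 46.4, 23.1, 13.9, 18.1 and 13.1. The inhibitory receptor Cd72 had 18, 8.11, 4.77, 3.10 and 2.57. Plcg2 and Pik3cd, enzymes of the same pathway, had ratios of 2.26 and 2.50. Retained were Vpreb3, Btk, Lyn, Pik3ap1, Ptpn6, Inpp5d and Vav1. Several of these also serve signalling in myeloid cells, and a link of that to retention was not tested. Lyn, a Src family kinase, went up from 27.3 to 43.9.

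All 3 genes of V(D)J recombination with a start in a broad domain were in shrinking domains, under each scaling. Rag1, a subunit of the recombinase, had 8.72, 2.52, 2.31, 1.39 and 1.81 and no window with an F of 4 at 48 hpi. Rag2, its partner, had 16.6, 7.53, 5.91, 4.41 and 5.87. Dntt, which encodes terminal transferase, had 19.3, 13.7, 5.16, 4.28 and 3.08 over 33 kb. H3K4Me1 at Rag1 went from 9.87 to 6.43, or by -0.62 on the log2 scale. Of 7 lymphoid receptor and surface genes with a start in a broad domain, out of 18 listed, 5 were shrinking. Il7r, which encodes a receptor for lymphoid growth, had 26.1, 26.9, 12.1, 14.9 and 11.1, and Cxcr4, a chemokine receptor, had 19.3, 12.5, 9.51, 6.77 and 6.60. Il2ra, the CD25 gene, had 36.5, 41.2, 26.6, 21.9 and 9.93, with H3K4Me1 at 10.5 and 10.1 at the ends of the course. Cd37 and Cd24a had ratios of 3.26 and 3.51. Cd93 was retained. Under the scaling by enriched windows Il7r left the members.

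Of 10 cell cycle and growth genes with a start in a broad domain, out of 22 listed, 7 were in shrinking domains, and 4 remained under the scaling by enriched windows. Ccnd3, the D-type cyclin of dividing pre-B cells, lay in a domain of 63 kb with 28.8, 20.4, 15.5, 15.2 and 7.96. Ccnd1 and Cdk6, a further cyclin and its kinase, had ratios of 3.01 and 2.79, and E2f2 had 3.35. Mcm2, Pcna and the inhibitor gene Cdkn1b had ratios of 2.02, 2.18 and 2.33, all of them under the value that the scaling by enriched windows needs. Myc, Cdk4 and E2f1 were retained. Among 23 macrophage genes 4 had a start in a broad domain at 0 hpi, namely Cd68, Tyrobp, Tlr4 and Sfpi1, and none was shrinking. The share over all genes with a start in a broad domain was 31.1%, so little can be read from 4 genes. Both other scalings raise the 48 hpi library, by 0.119 and 0.413 on the log2 scale, so neither could turn a retained domain into a shrinking one. Sfpi1 encodes PU.1, a factor of B and myeloid cells, and had 39.0 at 0 hpi and 39.7 at 48 hpi. Of 14 T lineage genes only Cd5 had its start in a broad domain, which was retained at a ratio of 1.82, and of the domains within genes of the list that in Tcf7 was shrinking at 4.04 and that in Notch1 retained at 0.755. Of 11 erythroid and stem cell genes the 2 with a start in a broad domain, Zfpm1 and Lyl1, were shrinking at ratios of 3.92 and 2.31, Lyl1 not under the scaling by enriched windows. Of 12 genes that every cell uses, 4 had a start in a broad domain. Tubb5 was shrinking at 2.96, and the retained ones included Actb at 1.22 and Rpl13a at 1.99, just outside the rule. Over the 40 member domains with a list gene start, 9, 10 and 1 were first 2-fold lower at 3, 12 and 24 hpi and 20 were not before 48 hpi.

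**Figure D5:**
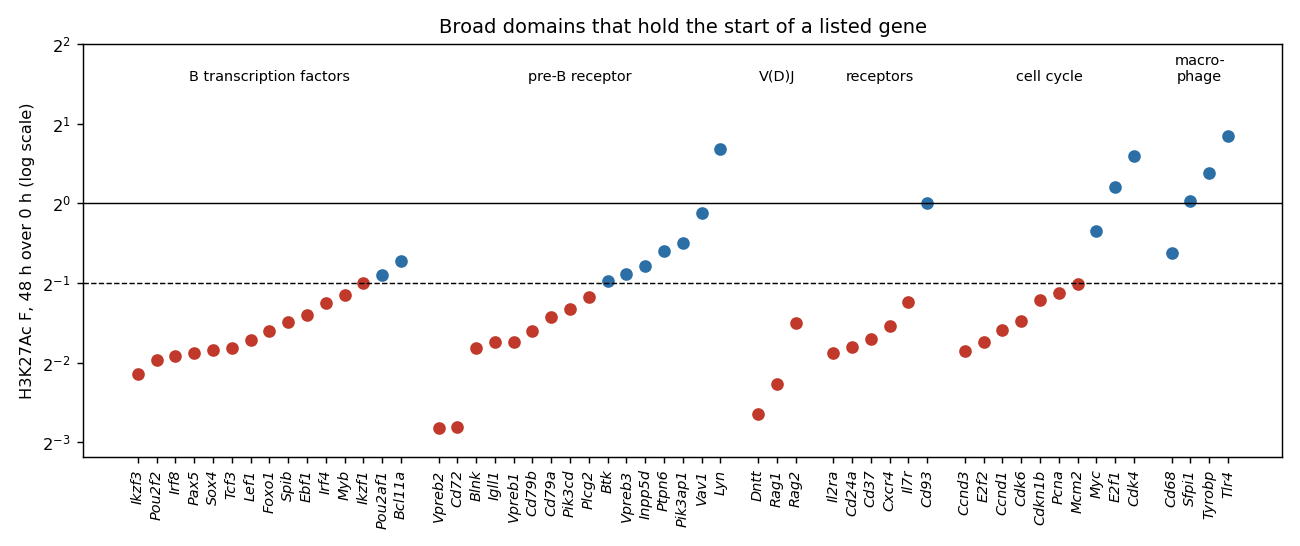
H3K27Ac F at 48 hpi over 0 hpi (y axis, log scale) in the broad domain that holds the start of a listed gene (x axis), by list; 1 point per gene, with 2 genes of these lists not plotted. The dashed line is the 2-fold rule, with shrinking domains in red and retained domains in blue. Vpreb1 and Igll1 share 1 domain. Vpreb2 and Cd72 are the lowest of the pre-B receptor list, with ratios of 7.05 and 7.0, and no macrophage gene lies below the dashed line.

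The largest falls were mostly far from gene starts. The 12 kb domain near Glrx3, which lies 156669 bp from that start, had an F of 33.3, 17.3, 3.72, 1.09 and 1.04. The domain near Lpin1 had 18.3, 3.78, 1.0, 0.396 and 0.711, and the domain in 1300010F03Rik had 11.6, 8.34, 1.64, 0.712 and 0.469. These 3 had ratios of 32.0, 25.7 and 24.6. The next were near Celf4, at Svopl, near Gm11003, near Ufm1, in Nuak1, at Wnt10a and in Gm12824, with ratios from 20.5 to 24.5. Svopl, a transporter-like gene, and Wnt10a held the gene start within the domain. H3K4Me1 went from 14.2 to 4.25 in the Glrx3 domain, from 8.53 to 1.63 in the Lpin1 domain and from 11.1 to 5.55 in the 1300010F03Rik domain. In the other 7 it ended between 1.45 and 6.46, so the level left at 48 hpi varied among the 10.

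The highest member at 0 hpi was a 9 kb domain in Tbc1d16, a Rab GTPase-activating protein gene, with 62.0, 32.4, 36.9, 32.5 and 14.0. It was followed by Cd79b, by a domain in Slc10a7 at 57.1 and by a domain near Lgals9 at 56.9, which went to 9.46. The 10 highest also included domains near Spocd1, at Clcf1 and Pold4, in Mrvi1 and in Arhgap25, between 49.7 and 56.0 at 0 hpi. At 0 hpi the 3 windows of 3000 bases in Tbc1d16 held 3399 distinct positions, and counting 1 tag per position holds such levels down.

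The longest member, 108 kb at Cyth1, which encodes a guanine nucleotide exchange factor of lymphocytes, had an F of 25.8, 16.7, 13.6, 13.8 and 12.5. The domain near Cecr2 spanned 93 kb and had 31.5 at 0 hpi and 7.32 at 48 hpi. The others were 72 kb over Fgfr2, Lhpp and Fam53b, 66 kb at Pkig and 63 kb in Erg, a haematopoietic ETS factor gene, with ratios of 3.06, 2.44 and 2.35. Just inside the 2-fold rule lay Arid1a (31.2 and 15.6 at 0 and 48 hpi), Bcl9 (28.6 and 14.3), a domain near Sema7a (11.5 and 5.73), Hip1 (18 and 9.02) and Pde4b (16 and 7.98). Just outside lay Ptk2b (9.5 and 4.75), Ccdc146 (25.5 and 12.8), Atad2 with Wdyhv1 (12.6 and 6.32), a domain in Plcg2 (30.2 and 15.1) and Pomt1 (11.4 and 5.72). The domain near Sema7a reached 28.8 at both 3 and 12 hpi before it went down, so membership does not mark a steady course.

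A stretch of chromosome 12 was set as a segment of the immunoglobulin heavy chain locus and 1 Mb around it. The locus is rearranged in pre-B cells, and the stretch was not set to cover the whole of it. Its 13 broad domains lay between 113826001 and 115755000, and 8 were shrinking. The largest ratio among them, 16.6, was in a 12 kb domain near Tmem121, with 14.8, 3.86, 1.16, 0.724 and 0.888. The 4 members near Gm7112 in this stretch had ratios from 2.55 to 13, and 3 more members near Gm7112 lie beyond its end, with ratios of 9.28, 7.24 and 11. Without the 13 domains, but with those 3, 1417 of 3179 broad domains were shrinking, so this count does not leave out the whole region. The 0 over 48 hpi ratio in windows of background level within 500 kb, which would follow a change in copy number, had a median of 1.1 around members and 1.03 around retained domains, and 39 members and 5 retained domains exceeded the median of all broad domains by 1.5-fold or more. As far below it lay 4 members and 17 retained domains. Those values are of H3K27Ac. For H3K27Me3, which the rule did not use, 3 members and 0 retained domains were as far above the median in the same windows. As far below were 0 members and 2 retained domains. Copy number itself was not tested.

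Motif letters were counted in the anchor of each domain, the 1 kb bin with the most H3K27Ac tags at 0 hpi. The EBF1 letters lay in 24.1% of shrinking anchors (exact 95% interval 21.9 to 26.4), in 22.9% of retained anchors (21.0 to 25.0) and in 8.91% of all 1 kb bins with a tag. E protein letters lay in 56.1%, 50.7% and 45.4%, PU.1 letters in 11.8%, 13% and 5.79%, and C/EBP letters in 31.9%, 32.7% and 38.8%. RUNX letters lay in 23.4%, 20.8% and 21.5%, and AP-1 letters in 23.4%, 24.7% and 26.7%. The intervals of the shrinking and retained shares overlapped for every motif but the E protein letters, where they were 53.4 to 58.7 and 48.3 to 53.1. Retained domains held a gene start more often, so these shares mix places. In domains without a gene start the intervals overlapped for every motif. The E protein shares there were 55.2% (52.0 to 58.3) and 49.3% (45.8 to 52.8). C/EBP letters lay in 33.3% (30.3 to 36.4) and 38.3% (34.9 to 41.7), and AP-1 letters in 26.0% (23.3 to 28.9) and 30.8% (27.6 to 34.0). The gaps of the remaining motifs were smaller. Median GC content of the anchors was 48.1% in shrinking and 50.8% in retained domains. In domains without a start it was 47.0% and 46.8%. Over whole domains it was 46.3% and 46.7%, and 41.8% over all tagged bins. All shares of motif letters were higher with an anchor of 3 kb. EBF1 letters then lay in 47.2% of shrinking anchors, 43.4% of retained anchors and 23.8% of all tagged 3 kb windows. E protein letters lay in 91.3%, 88.1% and 82.2% in the same order. A match of letters is a description of sequence and not a bound site.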

How the data were processed

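ChIP-seq libraries for 3 histone marks at 5 times, 1 per mark and time, were grouped by their labels. The authors aligned reads to mm9 with Eland or Bowtie without mismatches and removed ambiguous and identical tags. The deposited files list the position of each 36 bp tag, so counts were made here. Some files kept repeated positions, and 1 tag per position (midpoint 18 bp from the start) was therefore counted in each library. F was the count in a 3 kb window over the mean of the 832530 windows with a tag in any library. Log2 changes had 1 tag added to each count. Chromosomes 1 to 19 and X were used with NCBIM37, which is mm9, and GENCODE vM1, where a start is the 5' end of a protein-coding gene record. The deposited tags put 0 positions in 82908 bins of unknown bases.

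With 1 library per group no test was made. Intervals are exact binomial or Poisson for counts and order-statistic for medians over domains. Named domains were the 10 highest, the 10 with the largest fall, the 5 longest, the 5 nearest on each side of the threshold and those with the start of a listed gene. Some genes that this rule names are not reported here, and counts over domains and lists include them. A domain without a gene start was named by the gene it lies in or the nearest start. The members and lists were chosen with earlier results of these data known. Alternatives changed the window offset, F, length and fold thresholds, scaling, depth, repeated tags and the heavy chain stretch. The difference between shrinking and retained domains was added after seeing the data. Code (Python 3.11.15, NumPy 2.4.6, SciPy 1.17.1, pandas 2.3.3) was tested on simulated windows.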

Additional observations from a re-analysis of the deposited data

How the results depend on the processing

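The counts of broad and of shrinking domains stayed within 1.5 times of 3192 and 1425 for another window offset, F of 3 or 6, background scaling, thinned libraries, repeated tags and without the heavy chain stretch. The broad count uses the 0 hpi library alone, which scaling and thinning leave unchanged, so those settings are no check of it. They were 8153 and 3115 with at least 2 windows and 933 and 481 with at least 5. Shrinking domains numbered 805 at 3-fold, and 946 of 3192 (29.6%) with scaling by windows enriched in all 5 libraries. That scaling shifts the 48 hpi H3K27Ac library by 0.413 on the log2 scale, alike for every domain. The 2-fold rule thus fixes in advance that all 1425 members stay at least 1.5-fold lower under it. The shrinking domains were chosen again under each alternative, so the medians that follow can cover different sets of domains. The median log2 change of H3K27Ac from 3 to 24 hpi turned from -0.56 to 0.52 with background scaling and that of H3K4Me1 from 0 to 48 hpi from -0.71 to 0.03. Which scaling is right was not tested. Other moves of the H3K27Ac value were -0.51 at F of 6, -0.64 with 2 windows, -0.49 with 5, -0.36 at 1.5-fold, -0.88 at 3-fold and -0.89 with enriched-window scaling. For H3K4Me1 they were -0.68 with 5 windows, -0.57 at 1.5-fold, -0.94 at 3-fold and -0.80 with enriched-window scaling. H3K27Me3, at 0.02, was -0.04 with 5 windows, 0.06 at 3-fold, 0.23 with background and -0.13 with enriched-window scaling. No paired analysis was possible because there was 1 library for every group. With 1 library per group, differences between times include differences between libraries. High F is compressed by counting 1 tag per position.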
